A study of Mus musculus with 63 samples.

Results

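The cartilage and bone genes followed here are 32 listed genes of chondrocytes and osteoblasts, 23 of cartilage and 9 of bone, out of 24990 rows measured in each RNA-seq library. They were taken by name from a fixed list, which was chosen with earlier results of these data known, and all 32 were found in the tables. The cartilage genes were divided into 3 transcription factors (Sox9, Sox5, Sox6), 6 collagens (Col2a1, Col9a1, Col9a2, Col9a3, Col11a1, Col11a2), 10 matrix proteins (Acan, Hapln1, Matn1, Matn3, Matn4, Comp, Chad, Epyc, Ucma, Mia) and 4 genes of the growth plate (Col10a1, Ihh, Fgfr3, Pth1r). The bone genes were 3 transcription factors (Runx2, Runx3, Sp7) and 6 genes of bone matrix and mineral (Alpl, Ibsp, Spp1, Bglap, Mepe, Dmp1). A second list of 45 other skeletal genes, 23 of cartilage and 22 of bone, was kept beside them.

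The study deleted the promoter and first exon of Chaserr, a long noncoding RNA gene upstream of the chromatin remodeller gene Chd2 in CB6F1 Ola HSD mice, which were then crossed back to C57BL/6 Ola HSD and gave a pair of founder lines. For Chaserr-/- Chd2m/m mice a separate Chaserr deletion was made in Chd2m/m animals, with a pair of the guides. A Chd2m allele carries a frameshift in an early exon and lowers, but does not remove, CHD2. RNA was sequenced from WT and Chaserr+/- whole embryos at E9.5 and at E13.5 and from WT and Chaserr+/- adult brains, with 3 libraries of each. Mouse embryonic fibroblasts (mEFs) are primary cells cultured from E13.5 embryos after the head and liver are taken off, and they were sequenced as 4 sets, each with its own matched WT cultures: Chaserr+/- (het set), Chaserr-/- (KO set), Chd2m/m (Chd2 set) and Chaserr-/- Chd2m/m (DKO set). Each mEF group had 3 libraries except Chd2m/m, with 2, and the WT cultures of the KO set carry the replicate numbers 4, 5 and 6. The WT cultures of the het and KO sets came from the same pregnancies as their mutants, those of the Chd2 set from Chd2+/m crosses and those of the DKO set from Chaserr+/- Chd2+/m crosses, although the Chaserr-/- Chd2m/m cultures are labelled as matched to a Chd2+/m cross. RNA immunoprecipitation (RIP) with a CHD2 antibody or IgG, and its input, came from Neuro2a cells, a mouse neuroblastoma line, with 2 libraries each, and ATAC-seq, which maps accessible chromatin, came from 12 mEF libraries of the KO and DKO sets. Nothing in the labels ties a library to one animal, so the p-values measure the spread between libraries.

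Cartilage forms when mesenchymal cells switch on Sox9, which with Sox5 and Sox6 turns on the collagens and proteoglycans of the cartilage matrix. Within a growth plate the chondrocytes divide, enlarge and secrete type X collagen, under the control of Indian hedgehog (Ihh), the parathyroid hormone receptor Pth1r and the growth factor receptor Fgfr3. Osteoblasts arise under Runx2 and Sp7, make alkaline phosphatase (Alpl), and lay down a matrix that later mineralises, with bone sialoprotein (Ibsp), osteopontin (Spp1) and osteocalcin (Bglap). The first limb and axial cartilage condenses between the 2 embryonic stages sampled here, and ossification begins towards the later one.

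The promoters of the bone genes are shown first, because RUNX proteins are themselves members and the short core they recognise can be read directly in the promoters of several others. RefSeq promoter windows (GRCm38.p6, 300 bases each, most of them upstream of a gene's start) were found for 27 of the 32 members (84.4%). No entry was held for Sox9, Col2a1, Col9a3, Comp or Sp7. The RUNX core was searched as TGTGGT or, on the other strand, ACCACA, and the SOX core as AACAAT or ATTGTT; neither overlaps the other. Capitals mark RUNX cores in the first 4 sequences below and SOX cores in that of Epyc, and Ibsp is shown as a bone promoter with no RUNX core in its window. Where a gene had several windows, the one with most cores is shown. The windows lie at chr17:44814578-44814877, minus strand (Runx2), chr4:135120395-135120694, plus strand (Runx3), chr5:104434861-104435160, plus strand (Spp1), chr3:88384417-88384716, minus strand (Bglap), chr5:104299037-104299336, plus strand (Ibsp) and chr10:97646853-97647152, plus strand (Epyc).
Runx2: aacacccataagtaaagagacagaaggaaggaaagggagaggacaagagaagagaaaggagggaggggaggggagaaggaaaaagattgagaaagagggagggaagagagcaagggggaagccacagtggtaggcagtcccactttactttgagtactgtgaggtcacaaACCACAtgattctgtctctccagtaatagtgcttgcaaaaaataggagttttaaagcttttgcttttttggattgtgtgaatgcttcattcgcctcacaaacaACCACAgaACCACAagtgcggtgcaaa
Runx3: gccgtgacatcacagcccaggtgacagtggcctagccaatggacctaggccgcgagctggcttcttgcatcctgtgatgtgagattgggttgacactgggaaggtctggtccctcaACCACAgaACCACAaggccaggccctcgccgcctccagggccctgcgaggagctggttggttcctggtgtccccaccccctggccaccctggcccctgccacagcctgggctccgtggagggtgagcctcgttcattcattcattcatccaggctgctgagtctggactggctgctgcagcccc
Spp1: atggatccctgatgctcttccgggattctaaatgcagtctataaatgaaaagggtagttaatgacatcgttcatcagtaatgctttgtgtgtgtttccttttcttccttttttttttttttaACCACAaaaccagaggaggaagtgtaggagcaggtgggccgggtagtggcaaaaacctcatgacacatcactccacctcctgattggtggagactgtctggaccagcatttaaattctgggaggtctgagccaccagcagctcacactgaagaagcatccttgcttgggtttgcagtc
Bglap: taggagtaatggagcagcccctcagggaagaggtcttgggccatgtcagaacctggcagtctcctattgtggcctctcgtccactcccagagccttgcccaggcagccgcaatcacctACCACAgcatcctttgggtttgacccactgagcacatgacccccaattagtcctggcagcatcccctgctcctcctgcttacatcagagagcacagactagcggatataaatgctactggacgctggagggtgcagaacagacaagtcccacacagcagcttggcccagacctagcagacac
Ibsp: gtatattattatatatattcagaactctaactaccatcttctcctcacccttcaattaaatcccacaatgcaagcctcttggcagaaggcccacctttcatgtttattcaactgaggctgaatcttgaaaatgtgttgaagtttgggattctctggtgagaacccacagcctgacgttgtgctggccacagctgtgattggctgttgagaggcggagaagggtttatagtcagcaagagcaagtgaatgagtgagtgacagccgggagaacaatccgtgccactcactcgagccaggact
Epyc: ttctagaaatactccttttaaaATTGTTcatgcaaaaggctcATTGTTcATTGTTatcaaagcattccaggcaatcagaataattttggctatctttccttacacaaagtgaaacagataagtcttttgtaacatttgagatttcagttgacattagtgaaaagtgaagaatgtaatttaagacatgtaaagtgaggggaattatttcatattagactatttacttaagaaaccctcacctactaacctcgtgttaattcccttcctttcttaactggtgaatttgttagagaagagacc

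A RUNX core stood in at least 1 window of 6 of the 8 bone members with an entry (75%) and of 5 of the 19 cartilage members (26.3%). Counted by window, 6 of 12 bone windows (50.0%) and 6 of 30 cartilage windows (20.0%) held it, beside 16.8% of all 32851 windows. A SOX core stood in a window of 2 of the 19 cartilage members (10.5%) and 1 of the 8 bone members (12.5%). By window it was 3 of 30 cartilage windows (10.0%) and 1 of 12 bone windows (8.3%), beside 10.7% of all windows. These matches describe letters in a short window, and these windows are few.

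Between E9.5 and E13.5, WT embryos gained transcripts of most cartilage matrix genes and of the bone transcription factors, from levels near 0. Of the 21 cartilage genes with enough counts to test, 15 rose and 4 fell (edgeR, adjusted p under 0.05), and of 6 bone genes tested 5 rose and 1 fell. Among all genes tested, 42.1% rose and 38.3% fell in this comparison, 80.4% in all, so a call alone sets no gene apart. The median log2 fold change was 1.19 for the cartilage genes and 2.96 for the bone genes, beside 0.06 for all 15761 genes tested. Of the genes that rose, 5 cartilage genes (Matn1, Comp, Chad, Epyc, Mia) and 2 bone genes (Runx3, Ibsp) had under 10 counts in every E9.5 library. They could be tested only through their E13.5 counts, so their levels and counts are given with no fold change. Without them the medians were 0.49 and 1.67. In whole embryos, fewer cells of a type and less RNA per cell cannot be told apart. Levels below are the authors' TPM, a share of all transcripts that accounts for their length, and fold changes are log2 values ± SE from counts scaled by edgeR.

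The transcription factors of cartilage were already present at E9.5. Sox9 was at 20.2, 21.1 and 19.7 TPM in the 3 E9.5 WT embryos and at 19.4, 19.5 and 19.3 at E13.5, and its scaled counts fell by 0.32 on the log2 scale (adjusted p = 0.000674). The log2 ratio of its mean TPM was only -0.07, so most of that fall depends on the scaling. Sox6, its partner, went from 7.63, 7.71 and 6.22 to 12.1, 11.6 and 10.9 TPM, a log2 fold change of 0.43 ± 0.10. These shifts were small beside those of the matrix genes. Sox5 went from a range of 5.75 to 6.32 TPM to 7.96 to 9.79, and its rise of 0.27 was no longer called without E9.5 replicate 1, without E9.5 replicate 3 or without E13.5 replicate 1.

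The collagens separated. Col2a1, the main fibrillar collagen of cartilage, was at 107, 103 and 134 TPM at E9.5 and 117, 106 and 118 at E13.5, levels that overlap, while its scaled counts fell by 0.27 (adjusted p = 0.0151). The log2 ratio of its mean TPM was only -0.02, so that fall too depends on the scaling. Type IX collagen, which coats the type II fibril and is built of the products of 3 genes, changed unevenly. Col9a3 went from 2.33, 2.28 and 2.55 TPM to 59.2, 65.4 and 74.1, a log2 fold change of 4.54 ± 0.11 (adjusted p = 2.92e-09). Col9a2 went from 4.92, 4.25 and 4.67 to 71.9, 62.5 and 68.97 TPM, a log2 fold change of 3.62 ± 0.08. Col9a1, their partner, was already at 29.5 to 36 TPM at E9.5 and rose by only 0.55 on the log2 scale. At E13.5 the 3 chains stood at like levels, between 46.3 and 74.1 TPM, whereas at E9.5 Col9a1 stood above the other two in every embryo. Of the type XI chains, which join type II fibrils, Col11a1 rose by 1.10 and Col11a2 by 2.12. The median over the 6 collagens was 1.61.

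Of the matrix proteins 7 of 9 tested genes rose, 5 of them from the low counts named above. Matn1, a matrilin that bridges collagen and aggrecan, was at 0.12, 0.08 and 0.04 TPM at E9.5 and 4.57, 3.42 and 4.2 at E13.5, with 6 and 318 counts over the 3 embryos. Epyc, a small leucine-rich proteoglycan of epiphyseal cartilage, went from 0.19, 0.09 and 0.09 to 4.27, 3.82 and 4.72 TPM, with 8 and 284 counts. All E13.5 embryos stood above all E9.5 embryos for both. The rises with more counts behind them were those of Matn4, with a log2 fold change of 4.65 ± 0.17, and of Acan, the aggregating proteoglycan that holds water in cartilage, with 4.15 ± 0.19. Mia, a secreted protein of chondrocytes, had 21 counts over all E9.5 WT embryos and 556 at E13.5. Comp had 6 and 80, Chad 3 and 46, and Ucma, too low to test, 1 and 18.

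A pair of matrix genes went the other way. Hapln1, the link protein that ties aggrecan to hyaluronan, was at 65.1, 61.4 and 66.1 TPM at E9.5 and 7.28, 9.14 and 7.76 at E13.5, and fell by 3.24 on the log2 scale (SE 0.08, adjusted p = 3.1e-09). Matn3, another matrilin, was at 2.91, 3.33 and 2.48 TPM and then 1.14, 0.98 and 1.18, and fell by 1.65. Hapln1 was therefore higher per length than all members but Col2a1 at E9.5, and below Sox9 at E13.5. 

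Among growth plate genes, Pth1r went from 22.5, 23.4 and 24.6 TPM to 60.95, 62.8 and 67.7, a log2 fold change of 1.19 ± 0.06, and was the one gene of its group that passed. Fgfr3 overlapped between the stages, at 21.6 to 27.5 and 23.8 to 29.1 TPM, with a log2 fold change of -0.14 ± 0.09 and an adjusted p of 0.182 that ranged down to 0.0486 under the alternatives. Ihh stayed between 0.47 and 1.05 TPM at both stages, and its difference of -0.49 ± 0.33 did not pass. Col10a1, the type X collagen of enlarged chondrocytes, was at no more than 0.09 TPM in any WT embryo and was too low to test at this depth.

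All 3 bone transcription factors rose. Runx3 was at 0.02, 0.04 and 0.06 TPM at E9.5 and 2.53, 2.25 and 2.28 at E13.5, with 6 and 373 counts. Runx2 went from 0.25, 0.21 and 0.32 to 5.23, 5.95 and 5.75 TPM, a log2 fold change of 4.14 ± 0.15. Sp7, which acts after Runx2 in osteoblasts, rose less, by 1.78 ± 0.23. In the matrix group, Ibsp was at 0.12, 0.08 and 0 TPM and then 4.61, 1.18 and 0.9, with 5 and 168 counts and one E13.5 embryo well above the others. Spp1 went from 3.92, 2.81 and 2.95 to 12.1, 10.7 and 11.1 TPM, a log2 fold change of 1.55 ± 0.16. Alpl, an enzyme also made by germ cells and early embryonic tissue, fell by 0.94, from 12.7, 15.3 and 15.6 TPM to 9.95, 8.58 and 8.65. The genes of late bone were scarcely seen: Bglap was at 0 to 0.87 TPM over both stages, with reads that can be shared with its near-identical copies Bglap2 and Bglap3, Mepe was listed at 0 in all 6 embryos, and Dmp1, a protein of osteocytes, reached 0.42 TPM at E13.5. The plot of embryo levels shows the genes that start near 0 and those already present.

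**Figure D1:**
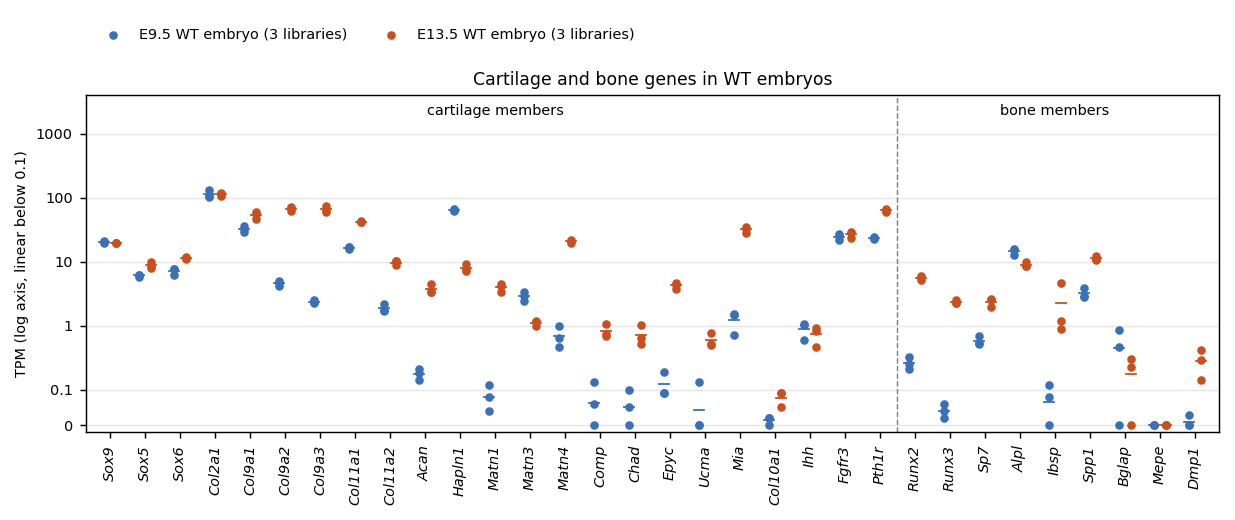
TPM (log axis, linear below 0.1) of the 32 genes in each WT embryo library at E9.5 (blue) and E13.5 (orange), with bars at the mean of 3 libraries. Matn1, Epyc, Runx2 and Runx3 move from near 0 to between 2.25 and 5.95 TPM, whereas Sox9 and Col2a1 barely move and Hapln1 falls.

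Of the other skeletal genes, 15 of 22 other cartilage genes tested rose and 4 fell (median 1.62), and 11 of 20 other bone genes rose and 3 fell (median 0.75). The 4 with the largest changes at 1 TPM or more all came from the cartilage list. Gdf5, a growth factor of forming joints, went from a mean of 0.067 to 7.97 TPM, and Cilp from 0.02 to 1.82. Both were near 0 at E9.5, so no fold change is given for them. Cnmd, which encodes chondromodulin, rose by 5.03 and Cytl1 by 4.91. Over the same interval the summed TPM of 10 fibroblast markers was 642 to 810.0 at E9.5 and 2688 to 2934 at E13.5. That of 14 skeletal muscle markers was 883 to 1233 and then 2149 to 3063, that of 7 neuron markers 95.3 to 112 and then 1050 to 1311, and that of 17 macrophage markers 11.1 to 13 and then 379 to 416. The part of changed tissue proportions in the changes above was not tested.

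To see how much of the embryonic skeletal expression was carried into culture, each set of WT mEFs was set against the E13.5 WT embryos. In each set 4 to 8 bone genes passed as higher and none as lower, whereas the type IX collagens and Col11a2 were lower in all 4 sets. All 4 comparisons use the same 3 embryo libraries, and the cultures also differ from the embryos in library kit, in the removal of head and liver and in culture itself, which cannot be told apart. They also differ in scale. Over all genes at 1 TPM or more in both groups, the median log2 ratio of mean TPM was -0.68, -0.71, -0.90 and -0.51 for the het, KO, Chd2 and DKO sets, against medians of the fitted fold changes of -0.15, -0.10, -0.16 and -0.09. Fold changes below are from scaled counts, and a sign that differs in TPM is named.

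Of the bone genes tested, 5 of 7 were higher in het-set cultures than in E13.5 embryos, 8 of 8 in the KO set, 4 of 6 in the Chd2 set and 5 of 6 in the DKO set, and none was lower in any. The share of all genes higher was 39.3%, 38.2%, 39.8% and 38.1%. The median log2 fold changes of the bone genes were 1.85, 2.77, 1.64 and 2.36, and the log2 ratios of their mean TPM had medians of 1.06, 1.98, 0.56 and 1.78. The KO-set calls include Bglap, which had under 10 counts in every embryo and could be tested only through the cultures. Without it the KO-set median from scaled counts was 2.43. The Chd2-set median lay between 0.50 and 0.71 without any 1 of its cultures. Of 22 cartilage genes tested, 9 were higher and 12 lower in the het set, 9 and 10 in the KO set, 7 and 10 in the Chd2 set and 8 and 10 in the DKO set, where 46.8%, 42.5%, 46.6% and 42.7% of all genes were lower. Among the cartilage calls, 3 in the het set, 2 in the KO set and 4 in the Chd2 set have the opposite sign in TPM. The cartilage medians were -0.81, -0.04, -0.46 and -0.28 from scaled counts, and -1.61, -0.82, -1.53 and -0.95 as ratios of TPM. The cartilage calls include Col10a1 and Ihh in all 4 sets and Matn1 in the het set, each with under 10 counts in every library of one group. Without these genes the medians from scaled counts were -0.685, -0.035, -0.462 and -0.282.

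Spp1 was the most abundant member in every culture. It stood at 1129.9, 1243 and 1145 TPM in the het set, 279, 256 and 298 in the KO set, 314, 291 and 271 in the Chd2 set and 618, 788 and 763 in the DKO set, against 10.7 to 12.1 TPM in E13.5 embryos. Its log2 fold changes over the embryos were 7.54, 5.45, 5.79 and 6.63 in the order het, KO, Chd2, DKO, which is the order used from here on. Among bone genes Runx2 varied least between sets, at 18.5, 19.04 and 16.5 TPM in the het set, 27.3, 29.3 and 27.8 in the KO set, 20.6, 16.3 and 16.7 in the Chd2 set and 29.3, 31.8 and 27.02 in the DKO set. Its fold changes were 2.50, 3.10, 2.76 and 2.95, and its highest and lowest set means differed only 1.64-fold.

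The osteoblast genes below Runx2 varied far more between sets. Sp7 was at 1.18, 1.34 and 0.81 TPM in the het set, 5.5, 8.99 and 6.58 in the KO set, 1.52, 2.02 and 0.36 in the Chd2 set and 4.64, 7.56 and 4.03 in the DKO set. Alpl was at 4.44, 4.75 and 4.09 TPM in the het set, 22.6, 31.98 and 29.5 in the KO set, 4.36, 7.21 and 0.88 in the Chd2 set and 15.4, 25.4 and 12.4 in the DKO set. Ibsp was at 7.8, 11.96 and 11.6 TPM in the het set, 38.9, 48.1 and 49.3 in the KO set, 11.7, 26.4 and 0.31 in the Chd2 set and 62.7, 80.9 and 17.1 in the DKO set. All 3 genes were high in every KO-set culture, and all 3 were lowest in replicate 3 of the Chd2 set. Against the embryos, Sp7 had log2 fold changes of -0.29, 2.36, 0.22 and 1.77, of which only the KO and DKO values passed, and Alpl of -0.22, 2.43, -0.03 and 1.55, again with only those passing. Ibsp had 3.05, 5.17, 3.65 and 5.20, all called, with the Chd2-set call lost without its replicate 2. Runx3 was at 2.71, 2.41 and 2.69 TPM in the het set, 4.18, 5.71 and 4.21 in the KO set, 1.76, 1.65 and 1.4 in the Chd2 set and 1.76, 2.58 and 1.94 in the DKO set, with fold changes of 0.96, 1.79, 0.53 and 0.40, of which the DKO value did not pass and the Chd2 value has the opposite sign in TPM. Bglap was at 0, 2.19 and 0 TPM in the het set, 5.59, 6.56 and 8.58 in the KO set, 0.03, 6.64 and 1.66 in the Chd2 set and 2.82, 0.95 and 1.07 in the DKO set, uncertain for the reason given above. Dmp1 was at 0.37, 0.58 and 0.82 TPM in the het set, 0.39, 0.33 and 0.85 in the KO set, 0.12, 0.11 and 0.07 in the Chd2 set and 0.34, 0.24 and 0.26 in the DKO set, and Mepe reached no more than 0.11 TPM in any culture.

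Among cartilage transcription factors, Sox9 was at 14.8, 16.4 and 13.47 TPM in the het set, 24.7, 29.8 and 29.6 in the KO set, 16.4, 13.6 and 12.5 in the Chd2 set and 12.5, 15.4 and 21.8 in the DKO set, against 19.3 to 19.5 TPM in E13.5 embryos. Its log2 fold changes were 0.42, 1.32, 0.62 and 0.35; the het and Chd2 values have the opposite sign in TPM and the DKO value did not pass. Sox6 was at 7.07, 8.73 and 7.47 TPM in the het set, 5.02, 5.66 and 5.29 in the KO set, 6.29, 5.21 and 5.2 in the Chd2 set and 6.69, 6.05 and 11.8 in the DKO set, and did not pass in the Chd2 and DKO sets. Sox5 was at 2.48, 3.19 and 2.33 TPM in the het set, 1.69, 1.94 and 2.14 in the KO set, 1.65, 1.75 and 1.61 in the Chd2 set and 3.12, 3.43 and 5.24 in the DKO set, with fold changes of -0.94, -1.41, -1.32 and -0.60.

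Of the collagens, the fibril-forming Col2a1 and Col11a1 stayed at 21.6 TPM or more in every culture and the type IX chains did not. Col2a1 was at 160.5, 163 and 141 TPM in the het set, 37.1, 58.8 and 70.1 in the KO set, 46.5, 36.9 and 26.4 in the Chd2 set and 31.6, 49.5 and 66.2 in the DKO set, and its log2 fold changes were 1.25, -0.25, -0.58 and -0.65, with the KO value not past the test. Col11a1 was at 73.7, 82.7 and 68 TPM in the het set, 21.6, 28.03 and 34.1 in the KO set, 35.4, 32.2 and 31.3 in the Chd2 set and 76.2, 78.1 and 109 in the DKO set, with 1.62, 0.18, 0.70 and 1.61, of which the KO value did not pass and the Chd2 value has the opposite sign in TPM. For Col2a1 every het-set culture was above every other WT culture. Col9a1 was at 0.57, 1.25 and 0.68 TPM in the het set, 3.19, 4.1 and 3.46 in the KO set, 4.68, 1.9 and 0.68 in the Chd2 set and 5.15, 12.7 and 6.28 in the DKO set. Col9a2 was at 0.32, 0.64 and 0.36 TPM in the het set, 2.63, 3.86 and 4.09 in the KO set, 1.21, 0.6 and 0.22 in the Chd2 set and 0.55, 1.45 and 0.78 in the DKO set. Col9a3 was at 0.4, 1.51 and 0.35 TPM in the het set, 1.62, 2.4 and 3.47 in the KO set, 1.73, 0.72 and 0.39 in the Chd2 set and 2, 5.63 and 2.83 in the DKO set. These type IX levels lie below all those of E13.5 embryos, which were at least 46.3 TPM. The type IX falls from the embryo were called in every set, with log2 fold changes from -6.48 (Col9a2, het set) to -1.94 (Col9a1, DKO set). Col11a2 was at 0.27, 0.45 and 0.19 TPM in the het set, 1.2, 1.79 and 1.6 in the KO set, 0.84, 0.49 and 0.25 in the Chd2 set and 0.47, 1.22 and 0.63 in the DKO set, with -4.20, -1.90, -3.13 and -3.10, all called.

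The matrix proteins were mixed. Acan was at 3.88, 5.86 and 3.96 TPM in the het set, 5.1, 8.76 and 7.11 in the KO set, 3.55, 1.47 and 1.63 in the Chd2 set and 3.46, 5.99 and 3.22 in the DKO set, with log2 fold changes of 1.06, 1.67, 0.28 and 0.71, of which the Chd2 value did not pass. Hapln1 was at 6.46, 7.36 and 5.86 TPM in the het set, 7.29, 8.51 and 6.47 in the KO set, 16.6, 7.99 and 2.68 in the Chd2 set and 12.9, 25.98 and 13.7 in the DKO set, with 0.51, 0.67, 1.23 and 1.68; the het and KO values have the opposite sign in TPM. Epyc was at 1.59, 2.19 and 0.76 TPM in the het set, 4.95, 4.52 and 5.88 in the KO set, 3.73, 1.05 and 0.84 in the Chd2 set and 15.98, 18.8 and 10.2 in the DKO set, and passed as higher than in the embryos in the KO (1.08) and DKO (2.42) sets and as lower in the het set (-0.69). Mia was at 3.28, 2.42 and 1.84 TPM in the het set, 24.3, 29.6 and 20.4 in the KO set, 19.3, 6.96 and 3.53 in the Chd2 set and 14.1, 32 and 11.7 in the DKO set, and of its fold changes of -2.74, 0.53, -0.55 and 0.04 the Chd2 and DKO values did not pass and the KO value has the opposite sign in TPM. The KO and DKO cultures were the higher for Epyc without overlap, and for Mia every het-set culture was below every other one. Matn1 was at 0.06, 0.49 and 0.29 TPM in the het set, 3.9, 2.11 and 2.04 in the KO set, 3.01, 1.29 and 0.2 in the Chd2 set and 0.59, 2.96 and 1.44 in the DKO set. Matn4, another matrilin, was at 0.2, 0.83 and 0.28 TPM in the het set, 2.95, 3.03 and 3.29 in the KO set, 0.73, 0.16 and 0.32 in the Chd2 set and 0.84, 2.66 and 1.28 in the DKO set. Matn4 passed as lower than in the embryos in all 4 sets. Matn1 passed as lower in the het set, but had under 10 counts in every culture of that set, so no fold change is given. Matn3 was at 2.22, 2.26 and 2.79 TPM in the het set, 0.61, 1.6 and 1.27 in the KO set, 1.38, 0.68 and 0.56 in the Chd2 set and 2.09, 3.56 and 3.85 in the DKO set. Chad, a cell-binding leucine-rich protein, was at 0.79, 0.3 and 0.18 TPM in the het set, 2.11, 4.84 and 1.77 in the KO set, 0.94, 0.61 and 0.44 in the Chd2 set and 1.45, 2.14 and 2.35 in the DKO set. Comp, a pentameric matrix protein shared with tendon, lay between 0.33 and 3.36 TPM in all WT cultures, with called fold changes of 1.43, 2.25, 1.91 and 1.82. Ucma was listed at 0 in all het-set cultures and lay between 1.32 and 4.38 TPM in the KO set.

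Type X collagen stood apart. Col10a1 was at 49.1, 54.5 and 53.3 TPM in the het set, 0.54, 0.97 and 0.85 in the KO set, 2.25, 3.68 and 3.38 in the Chd2 set and 3.5, 2.71 and 11.3 in the DKO set, against at most 0.09 TPM in the WT embryos. It passed as higher in all 4 sets, but the 3 E13.5 embryos held 10 counts in all, so no fold change is given. The het-set mean was 66.5 times that of the KO set, the widest ratio of any member found in every set. Pth1r ran the other way, at 7.33, 9.53 and 6.42 TPM in the het set, 27.6, 25.5 and 26.6 in the KO set, 5.67, 5.1 and 3.61 in the Chd2 set and 12.1, 15.4 and 9.48 in the DKO set, with fold changes of -2.23, -0.44, -2.65 and -1.78. Every KO-set culture was above every other WT culture for Pth1r and below every other for Col10a1. Fgfr3 lay between 0.88 and 2.62 TPM in all WT cultures and was lower than in the embryos in every set (-3.67, -2.92, -2.92 and -3.46), and Ihh was at 0.38 TPM or less.

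**Figure D2:**
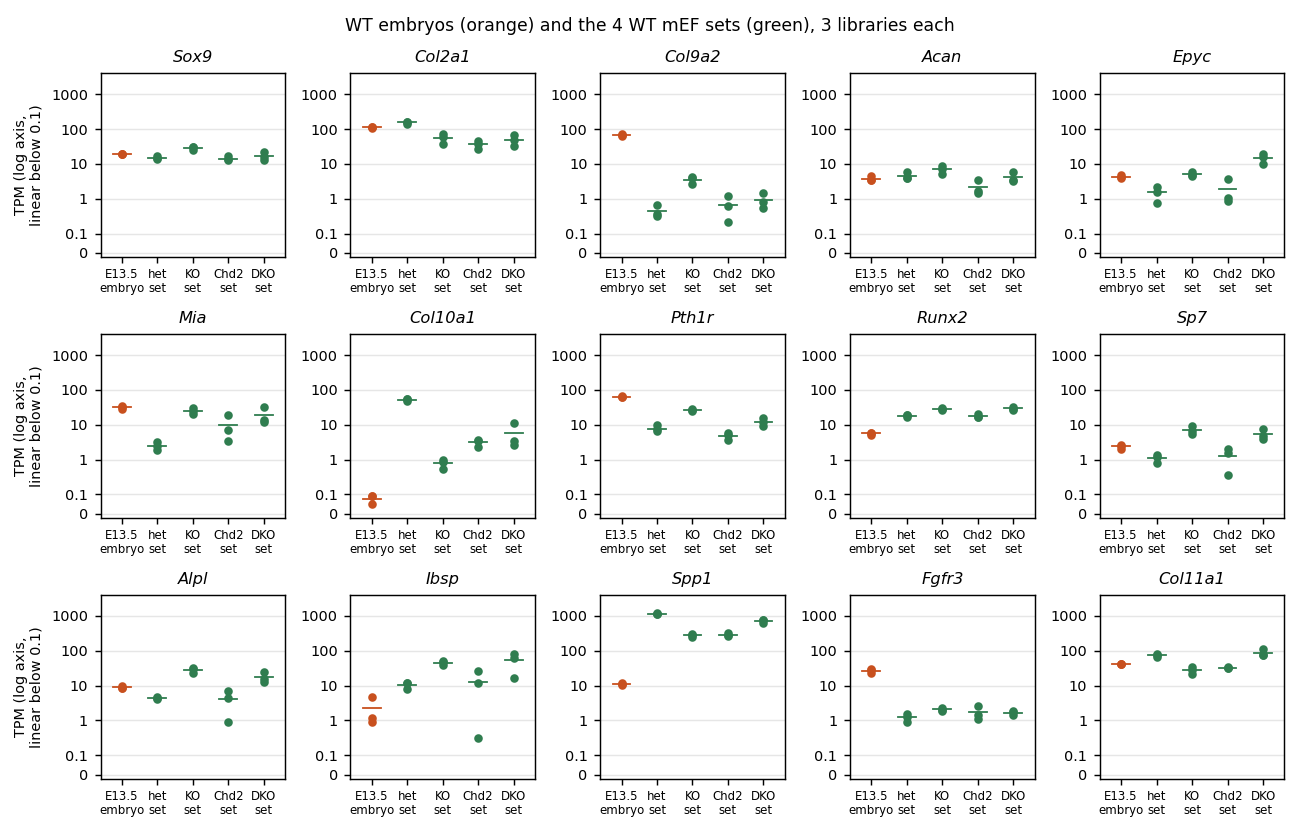
TPM (log axis) of 15 cartilage and bone genes in each WT library of E13.5 embryos and of the het, KO, Chd2 and DKO mEF sets, 3 libraries each. Spp1 and Runx2 lie above the embryos in every culture, Col9a2 and Fgfr3 below, and Col10a1 separates the het set from the KO set.

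The WT cultures of the 4 sets differed from one another in 18 of 21 cartilage genes and 8 of 8 bone genes tested (edgeR, any difference among 4 sets), beside 88.1% of all genes. Sox6, Comp and Fgfr3 were the exceptions. The mean was highest in the KO set for 12 of 23 cartilage genes and 5 of 9 bone genes, and in the Chd2 set for none. These are means of TPM, whose scale differs between sets. The share of all genes highest in each set is not given, so these counts set no member apart. The ratio of the highest to the lowest set mean was 9.90 for Epyc, 9.85 for Mia, 9.66 for Col9a1, 6.76 for Alpl, 6.33 for Sp7, 5.54 for Pth1r, 5.12 for Ibsp, 4.23 for Col2a1 and 4.22 for Spp1. The sets also differ in cross and pregnancy. Over the same sets the summed TPM of 17 macrophage markers was 320 to 430.1, 1351 to 1608, 545 to 808 and 923 to 1034, and that of 14 skeletal muscle markers 377 to 426, 1155 to 1997, 543 to 880 and 661 to 835, and their part in these differences was not tested. Among the other skeletal genes the largest culture changes were those of Tnfrsf11b, the decoy receptor that restrains osteoclasts (5.21, 3.90 and 3.65 in the het, Chd2 and DKO sets), Prg4, lubricin (4.60, 3.39 and 4.17), Panx3, a channel of osteoblasts and enlarging chondrocytes (4.00 and 3.33 in the KO and Chd2 sets, and also among the largest in the DKO set), Sparc in the het set (3.76), Omd in the DKO set (4.86), and Ifitm5 (3.77) and Snorc (4.84) in the KO set. Cnmd in the het set (-3.83) was among those that were lower. Bglap2 (KO set) and Hapln3 (Chd2 set) also met the rule, but were listed at 0 in one of the groups compared.

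The mutants were each set against their own WT libraries. Chaserr itself, listed under its older symbol, was at 0 TPM in all 3 Chaserr-/- cultures and at 0 to 0.23 in Chaserr-/- Chd2m/m cultures, and its mean was lower in each Chaserr+/- group than in its WT. Chd2 had log2 fold changes of 0.78 in Chaserr+/- E13.5 embryos, 0.55 in Chaserr+/- mEFs, 1.45 in Chaserr-/- mEFs, 1.88 in Chaserr-/- Chd2m/m mEFs and 0.67 in Chd2m/m mEFs. It also had 0.66 in Chaserr+/- E9.5 embryos (edgeR adjusted p = 0.104) and 0.98 in Chaserr+/- brains, and passed in edgeR in neither. A member with a change of that size could therefore also fail to pass there. Chaserr was at 80.0 to 93.7 TPM in the DKO-set WT cultures and at most 22.2 TPM in the other WT cultures.

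In Chaserr+/- embryos and brains no cartilage or bone gene passed. In E9.5 embryos edgeR called none of 14500 genes (0%; 453, or 3.12%, at an unadjusted p under 0.05) and DESeq2 5 genes (0.0262%), none a member. The medians were -0.04 over 16 cartilage genes and -0.10 over 4 bone genes. Hapln1 was at 65.1, 61.4 and 66.1 TPM in WT and 65.4, 69.7 and 67.7 in Chaserr+/- embryos, a log2 fold change of 0.10 ± 0.04 (unadjusted p = 0.0433, adjusted p = 1). Pth1r was at 22.5, 23.4 and 24.6 TPM in WT and 23.3, 19.8 and 19.1 in mutant libraries, a log2 fold change of -0.15 ± 0.09 with overlapping groups. Both groups of Hapln1 overlap in TPM too, though not in scaled counts. Replicate 3 of Chaserr+/- at E9.5 stands apart, with 75.6 TPM summed over 14 skeletal muscle markers against at least 883 in WT embryos, and without it no member was called either.

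At E13.5 edgeR called 5 of 15946 genes (0.0314%), none a member (6.34% at an unadjusted p under 0.05), and DESeq2 23 genes (0.114%), none a member, with medians of -0.04 over 21 cartilage genes and -0.03 over 7 bone genes. Pth1r was at 60.95, 62.8 and 67.7 TPM in WT and 46.7, 58.9 and 56.6 in Chaserr+/- embryos. Every Chaserr+/- embryo was below every WT one, as for 7.07% of all genes, and the log2 fold change was -0.19 ± 0.06 (unadjusted p = 0.011, adjusted p = 0.732). Epyc was at 4.27, 3.82 and 4.72 TPM in WT and 4.38, 6.67 and 6.48 in mutant libraries, a log2 fold change of 0.49 ± 0.16 with groups that overlap in TPM but not in scaled counts. The adjusted p of both leaves them as differences that did not pass. Replicate 1 of Chaserr+/- at E13.5 had 90108 TPM summed over 8 erythroid markers, against 18408 to 33455 in WT embryos, and no member was called without it.

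In brains, where Hapln1 belongs to the nets around neurons and Sox9 to astrocytes, no gene passed in edgeR (0%; 368 of 14911, or 2.47%, at an unadjusted p under 0.05) and 1 in DESeq2 (0.00505%), not a member. Mia was at 10.4, 13.2 and 16.5 TPM in WT and 7.53, 5 and 8.58 in Chaserr+/- brains, a log2 fold change of -0.91 ± 0.33 (unadjusted p = 0.0275). Dmp1 was at 4.85, 4.39 and 4.38 TPM in WT and 3.26, 2.58 and 2.09 in mutant libraries, a log2 fold change of -0.79 ± 0.30. In both, every Chaserr+/- brain was below every WT one, as for 5.11% of all genes. The medians were 0.12 over 16 cartilage genes and 0.19 over 5 bone genes. Replicate 3 of both groups came from another library kit, and it stood apart for some members: over the WT brains Col9a3 was at 3.76, 4.82 and 31.2 TPM and Sox9 at 37.1, 35.6 and 12.9.

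Alpl, Ibsp and Sp7, all genes of osteoblasts, were higher in Chaserr+/- mEFs than in their own WT cultures. Of 7 bone genes tested 3 passed, all higher, and of 19 cartilage genes none passed, beside 0.173% of all 13282 genes (0.128% higher). The median log2 fold change was 1.01 for bone and 0.51 for cartilage, beside 0.00 for all genes. Alpl was at 4.44, 4.75 and 4.09 TPM in WT and between 11.5 and 19.4 in the 3 Chaserr+/- cultures, a log2 fold change of 1.72 ± 0.19 (adjusted p = 0.00653). Ibsp was at 7.8, 11.96 and 11.6 TPM in WT and 51.01, 30.2 and 24.2 in mutant libraries, a log2 fold change of 1.74 ± 0.26 (adjusted p = 0.0264). Sp7 was at 1.18, 1.34 and 0.81 TPM in WT and 6.1, 4.07 and 3.22 in mutant libraries, a log2 fold change of 1.99 ± 0.29 (adjusted p = 0.0264). For all 3 every Chaserr+/- culture was above every WT culture of the set. Among the other skeletal genes Panx3 was the one that passed, with a log2 fold change of 2.03 (SE 0.29, adjusted p = 0.0211).

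These calls depended on single libraries. Alpl was lost without WT replicate 2 or 3, Ibsp without any 1 of the WT replicates, and Sp7 without any 1 of the WT replicates or without Chaserr+/- replicate 2, with adjusted p up to 0.0978, 0.154 and 0.22. The number of members called was 0 without WT replicate 2 or without WT replicate 3, 1 without WT replicate 1 and 5 without Chaserr+/- replicate 1. No share of all genes is given for these fits. The Chaserr+/- means of Alpl, Ibsp and Sp7 also lay within the range of means of the other WT sets. Spp1 did not follow the other bone genes, at 1129.9, 1243 and 1145 TPM in WT and 862, 1136 and 1180.3 in Chaserr+/- cultures. Bglap was at 0, 2.19 and 0 TPM in WT and 10.8, 5.6 and 1.89 in mutant libraries.

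Of the cartilage genes in Chaserr+/- mEFs, 16 of 19 tested had a higher mean, and for 10 every Chaserr+/- culture was above every WT one in scaled counts, as for 7.65% of all genes. Chad was at 0.79, 0.3 and 0.18 TPM in WT and 2.21, 2.71 and 1.62 in Chaserr+/- cultures, a log2 fold change of 2.27 ± 0.45 (edgeR adjusted p = 0.0936, DESeq2 0.032). Hapln1 was at 6.46, 7.36 and 5.86 TPM in WT and 9.32, 10.4 and 13.2 in mutant libraries, a log2 fold change of 0.71 ± 0.13 (edgeR 0.0723, DESeq2 0.00227). Col11a1 was at 73.7, 82.7 and 68 TPM in WT and 91.9, 117 and 116 in mutant libraries, a log2 fold change of 0.51 ± 0.10 (edgeR 0.114, DESeq2 0.00176). DESeq2 called 0.451% of all genes here. Sox9, at 14.8, 16.4 and 13.47 TPM in WT and 22.5, 14.7 and 11.6 in mutant libraries, and Acan, at 3.88, 5.86 and 3.96 TPM in WT and 3.02, 3.67 and 5.64 in mutant libraries, overlapped between the groups. The summed TPM of 14 skeletal muscle markers was 377 to 426 in WT and 534 to 806 in Chaserr+/- cultures, with 1 of 14 markers called, and that of 8 osteoclast markers was 43.3 to 57.4 and 22 to 39, with none of 3 tested called and Ocstamp at 0 in both. Their part in the result was not tested.

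In Chaserr-/- mEFs the cartilage genes leaned the other way, but none passed in edgeR. It called 0.118% of all genes (16 of 13580; 33.9% at an unadjusted p under 0.05), and of 21 cartilage and 8 bone genes tested 0 passed, with 6 and 2 at an unadjusted p under 0.05 and 4 called by DESeq2, which called 13.7% of all genes. The median was -0.45 over the cartilage genes, 17 of 21 with a lower mean, and -0.21 over the bone genes. Sox9 was at 24.7, 29.8 and 29.6 TPM in WT and 12.7, 18.1 and 16.4 in Chaserr-/- cultures, with no overlap, and its log2 fold change was -0.90 ± 0.17 (edgeR adjusted p = 0.0522, DESeq2 0.000188). Acan was at 5.1, 8.76 and 7.11 TPM in WT and 1.6, 3.92 and 4.3 in mutant libraries, with no overlap, a log2 fold change of -1.15 ± 0.33 (edgeR 0.0564, DESeq2 0.00579). Pth1r was at 27.6, 25.5 and 26.6 TPM in WT and 13.4, 22.8 and 18.4 in mutant libraries, again with no overlap, a log2 fold change of -0.62 ± 0.19 (edgeR 0.0663, DESeq2 0.0275). These 3 are all of the cartilage genes with every Chaserr-/- culture below every WT culture, as for 21.4% of all genes. Epyc was on the other side, at 4.95, 4.52 and 5.88 TPM in WT and 14.6, 8.17 and 6.32 in Chaserr-/- cultures, a log2 fold change of 0.84 ± 0.31 that passed in neither tool (edgeR adjusted p = 0.092, DESeq2 0.0586).

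Spp1 had higher values in every mutant culture than in any WT culture, as for 21.8% of all genes in scaled counts. Of the 8 bone genes tested, 1 lay wholly above and 1 wholly below. It was at 279, 256 and 298 TPM in WT and 588, 396 and 437 in Chaserr-/- cultures, a log2 fold change of 0.69 ± 0.15 (edgeR adjusted p = 0.0522, DESeq2 0.00139). Col2a1 and several osteoblast genes were spread by 1 library. Chaserr-/- replicate 1 had the lowest value of its group for Col2a1 (37.1, 58.8 and 70.1 TPM in WT, 12.5, 37.3 and 45.1 in Chaserr-/-), Alpl (5.5, 27.5 and 25.8), Sp7 (1.65, 8.52 and 6.77) and Ibsp (15.4, 83.9 and 56.3). Without that replicate 1 member was called higher and 2 lower, without replicate 2 1 was called higher and 5 lower, and without replicate 3 none. No share of all genes is given for these fits, so the counts set no member apart. The study's own lists of genes changed in these same libraries hold Sox9, Acan, Pth1r and Spp1 and are no independent evidence. The summed TPM of 17 macrophage markers was 1351 to 1608 in WT and 1039.6 to 1095 in Chaserr-/- cultures (2 of 17 called, both lower), and that of 14 skeletal muscle markers was 1155 to 1997 and 793 to 896 (1 of 14 called, lower), with none of either list at 0. The sums of 10 fibroblast markers (5673 to 5732 and 4309.9 to 5219.5), 8 osteoclast markers (68.1 to 85.4 and 51.8 to 59.1) and 8 erythroid markers (407 to 871 and 88.9 to 313, Hbb-bh1 at 0 in the mutant) were also lower without overlap, and that of 8 epidermis markers (162 to 309.6 and 309.8 to 344) was higher, with none called. Their part was not tested.

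**Figure D3:**
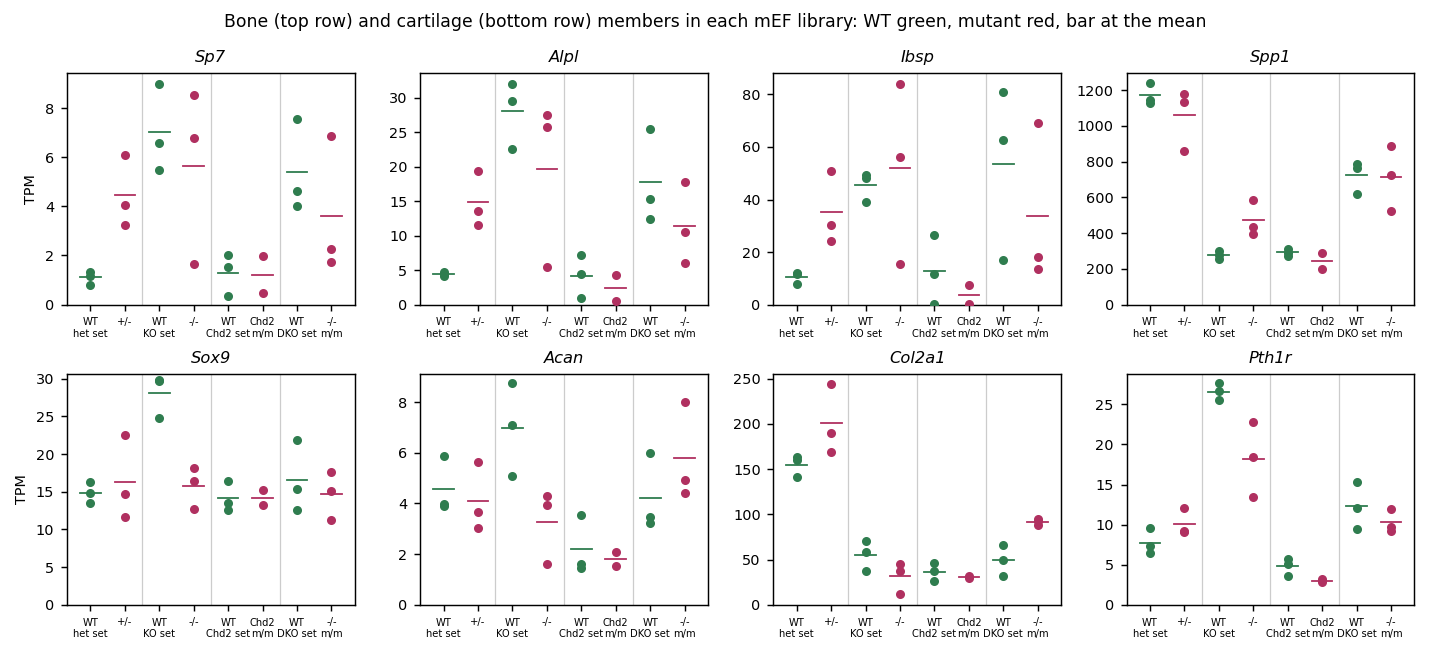
TPM in each mEF library for 4 bone genes (Sp7, Alpl, Ibsp, Spp1, top) and 4 cartilage genes (Sox9, Acan, Col2a1, Pth1r, bottom), in 8 groups of 3 libraries (2 for Chd2m/m), each WT group beside its mutant. Chaserr+/- cultures lie above their WT for Sp7, Alpl and Ibsp, and Chaserr-/- cultures below theirs for Sox9, Acan and Pth1r.

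In Chd2m/m mEFs, with 2 libraries, whether any member passed depended on a pairing of cultures by the number in their labels. Without it no member passed, while edgeR called 0.0145% of all genes (2; 621, or 4.51%, at an unadjusted p under 0.05) and DESeq2 0.0655%, none a member. The medians were -0.37 over 21 cartilage genes, 18 with a lower mean, and -0.23 over 6 bone genes. Pth1r was at 5.67, 5.1 and 3.61 TPM in WT and 2.79 and 3.25 in Chd2m/m cultures, each below every WT culture (as for 10.4% of all genes), a log2 fold change of -0.66 ± 0.21 (unadjusted p = 0.0111, adjusted p = 0.937). Col11a2 was at 0.84, 0.49 and 0.25 TPM in WT and 0.27 and 0.22 in mutant libraries, a log2 fold change of -1.08 ± 0.45. Alpl ranged from 0.88 to 7.21 TPM and Ibsp from 0.31 to 26.4 within the WT cultures alone. In both groups the labels end in a number after the Chd2+/m cross, which may number the cross or only the replicate, and WT replicate 3 has no partner. Deviations from the group means correlated at -0.0556 and 0.0931 between same-numbered cultures. With that number as a replicate block 1 residual degree of freedom is left, which measures little of the spread between cultures. On that basis edgeR called 11 members, all lower, beside 0.486% of all genes lower. They were Col2a1, Col9a1, Col11a2, Hapln1, Matn1, Comp, Mia, Pth1r, Alpl, Ibsp and Spp1, with blocked log2 fold changes from -2.63 (Ibsp) to -0.34 (Spp1).

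In Chaserr-/- Chd2m/m mEFs no member passed in edgeR, which called 0.0924% of all genes (13; 9.89% at an unadjusted p under 0.05). The medians were 0.28 over 21 cartilage genes, 14 with a higher mean, and -0.16 over 7 bone genes. Col2a1 was at 31.6, 49.5 and 66.2 TPM in WT and 92.4, 94.7 and 87.7 in the mutant cultures, each above every WT culture (as for 6.44% of all genes), a log2 fold change of 0.89 ± 0.20 (edgeR adjusted p = 0.132, DESeq2 0.000373), and was the one member called by DESeq2, which called 1.14% of all genes. Without WT replicate 3 edgeR called 2 members, with no share of all genes given for that fit. With the number in the labels as a replicate block, although the labels name the crosses of the groups differently, it called Col2a1 and Col10a1, both higher. Of all genes 0.199% were called higher there. Sox9, at 12.5, 15.4 and 21.8 TPM in WT and 17.6, 11.3 and 15.1 in mutant libraries, and Acan, at 3.46, 5.99 and 3.22 TPM in WT and 8.01, 4.4 and 4.92 in mutant libraries, overlapped. The summed TPM of 17 macrophage markers was 923 to 1034 and 588 to 857 (1 of 17 called, lower), that of 14 skeletal muscle markers 661 to 835 and 928 to 1165 (none called), that of 8 osteoclast markers 50.4 to 56.9 and 31.8 to 36.3 (1 of 4 tested called, lower), and that of 10 fibroblast markers 3725 to 4615 and 3167 to 3739.5 (none called, 8 of 10 at an unadjusted p under 0.05, median -0.46). Their part was not tested.

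**Figure D4:**
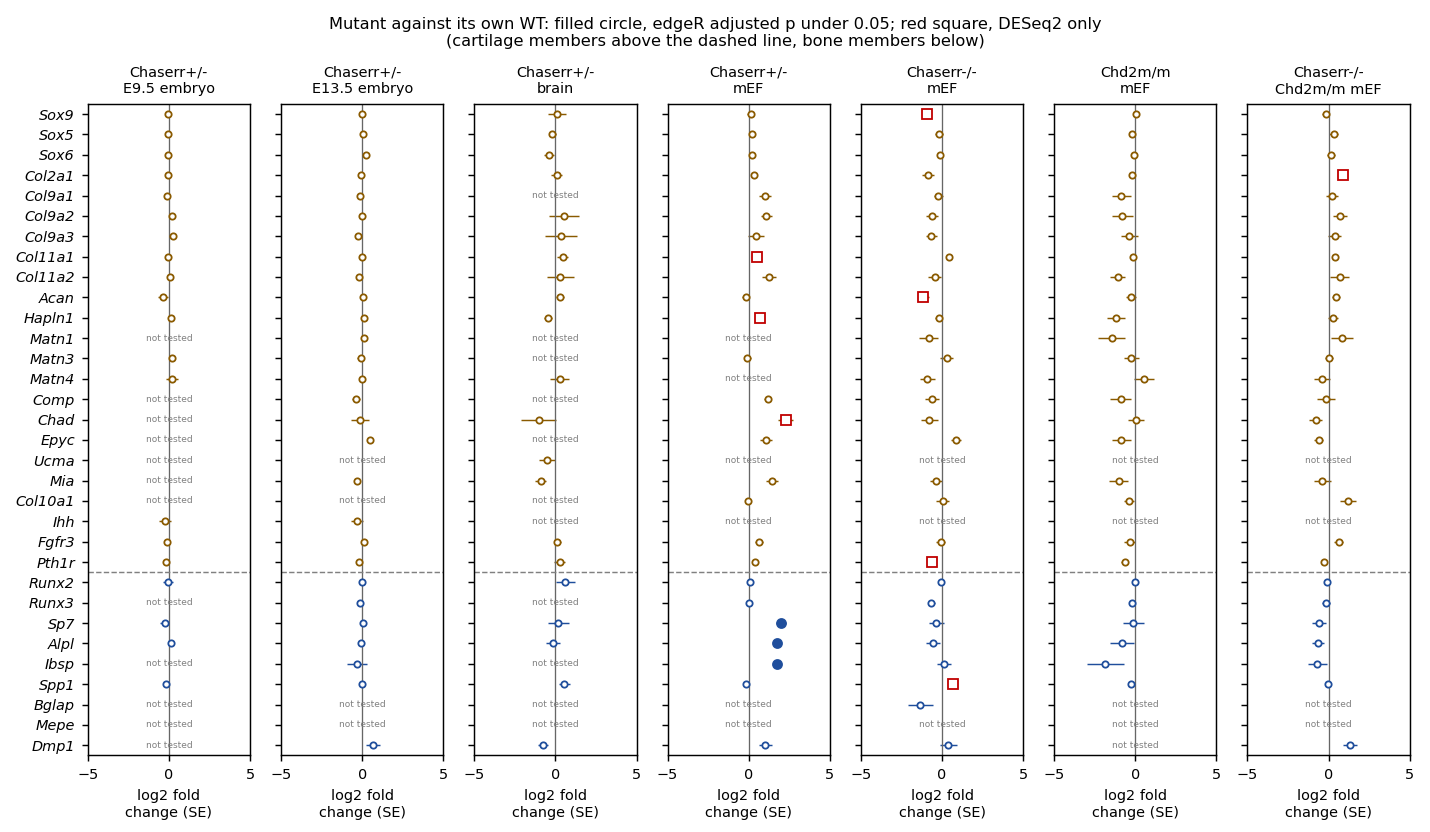
Log2 fold change ± SE of the 32 genes in 7 comparisons of mutant with WT (embryos of both stages, brains, and the het, KO, Chd2 and DKO mEF sets). Filled circles passed at an edgeR adjusted p under 0.05, red squares passed only in DESeq2, and only Sp7, Alpl and Ibsp in Chaserr+/- mEFs are filled.

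The difference between 2 mutant effects was tested directly. Between the Chaserr-/- and the Chaserr-/- Chd2m/m effects, each against its own WT, edgeR called no member (0.112% of all genes, 26.2% at an unadjusted p under 0.05), with 4 cartilage genes and 1 bone gene at an unadjusted p under 0.05, while DESeq2 called 3 members and 7.66% of all genes. The log2 difference was -1.76 ± 0.52 for Col2a1 (edgeR adjusted p = 0.0839), -1.59 ± 0.48 for Acan (edgeR 0.0868, DESeq2 0.0204), 1.45 ± 0.45 for Epyc (edgeR 0.0892, DESeq2 0.026) and 0.71 ± 0.26 for Spp1 (edgeR 0.112, DESeq2 0.0468).

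Between the Chaserr-/- and the Chaserr+/- effects in mEFs the cartilage genes differed by a median of -0.98 and the bone genes by -1.14. EdgeR called no member (0.157% of all genes, 29.6% at an unadjusted p under 0.05), with 12 of 21 cartilage genes and 6 of 8 bone genes at an unadjusted p under 0.05, and DESeq2 called 7 members and 8.63% of all genes. The largest of the latter were Sp7, with a difference of -2.35 ± 0.63 (edgeR adjusted p = 0.0652, DESeq2 0.00965), Alpl, with -2.29 ± 0.57 (edgeR 0.0623, DESeq2 0.0218), and Mia, with -1.84 ± 0.60 (edgeR 0.0815, DESeq2 0.0383). Sox9 (-1.0), Pth1r (-0.98), Hapln1 (-0.91) and Spp1 (0.86, with the opposite sign) were the other four. Without Chaserr-/- replicate 2 edgeR called 12 members and without Chaserr-/- replicate 1 it called 2. The share of all genes called in those fits is not given, so these counts set no member apart.

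In the CHD2 RIP from Neuro2a cells, transcripts of a bone and of a cartilage regulator were higher with the CHD2 antibody than with IgG. They were 1 of 6 bone and 1 of 14 cartilage genes tested, beside 7.99% of all genes higher and 0.138% lower. With so few genes tested, these counts do not set the members apart from other genes. The cartilage genes leaned the other way, with a median log2 fold change of -0.79, 12 of 14 negative, and 9 of 14 with both CHD2 libraries below both IgG libraries, as for 33.9% of all genes. The bone median was 0.52, with 3 of 6 negative, and was -0.50 with DESeq2. Runx2 was at 54.3 and 27.2 TPM with CHD2 and 13.3 and 11.2 with IgG, with 3.73 and 3.76 in the input, a log2 fold change of 2.06 ± 0.39 over IgG (adjusted p = 0.0256). Sox9 was at 112 and 137 with CHD2, 36.7 and 41.5 with IgG and 25.5 and 30.5 TPM in the input, a log2 fold change of 1.47 ± 0.29 (adjusted p = 0.029). Both calls were lost without either CHD2 library, a fit that leaves 1 library in that group. Fgfr3 was at 27.4 and 22.6 with CHD2 and 59.6 and 36.1 TPM with IgG, a log2 fold change of -1.15 ± 0.37 that passed in DESeq2 (0.048; 14.9% of all genes called) and not in edgeR (0.0954). Among the other skeletal genes, those of the transcription factors Trps1 and Foxc1 also passed, with log2 fold changes of 3.42 and 2.75. A poly(A) selection was not used for these libraries, so their TPM are not comparable with those of embryos and mEFs.

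In ATAC-seq of mEFs, the authors' peaks were counted in a library when one overlapped the 300 bases on either side of a gene's start (mm9). Sox9 alone had such a peak in all 12 libraries, and Col11a1, Matn3 and Runx2 had one in 11. Of the 23 cartilage genes 1 had a peak in every library, 16 in some and 6 in none, and of the 9 bone genes 0, 5 and 4. Among 22238 coding genes, 33.2% had one in every library and 34.1% in none. Sox6, Fgfr3 and Pth1r had a peak in 10 libraries, Matn4 and Alpl in 9, Col2a1 and Runx3 in 8, and Sp7 and Spp1 in 5. The 10 genes with no peak were Col9a2, Col9a3, Matn1, Epyc, Ucma, Mia, Ibsp, Bglap, Mepe and Dmp1. They include Ibsp and Mia, whose transcripts reached 80.9 and 32 TPM in WT cultures of these sets. Within 1000 bases Col9a2 had a peak in 8 libraries and Dmp1 in 4, and 5 cartilage and 3 bone genes had none. Hapln1 went from 1 library to 10 and Comp from 2 to 10 with that window. Acan had a peak in 2 of 3 WT and 3 of 3 Chaserr-/- libraries of the KO set, and in 0 of 3 WT and 2 of 3 mutant libraries of the DKO set. The number of peaks ranged from 18661 to 93597 between libraries, with WT replicate 2 of the DKO set (18661) and Chaserr-/- Chd2m/m replicate 1 (28349) lowest, so a missing peak can be a matter of depth. Without these 2 libraries, a choice made after seeing the data, 7 members had a peak in every library. The share of all coding genes with a peak in every library is not given for that choice.

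**Figure D5:**
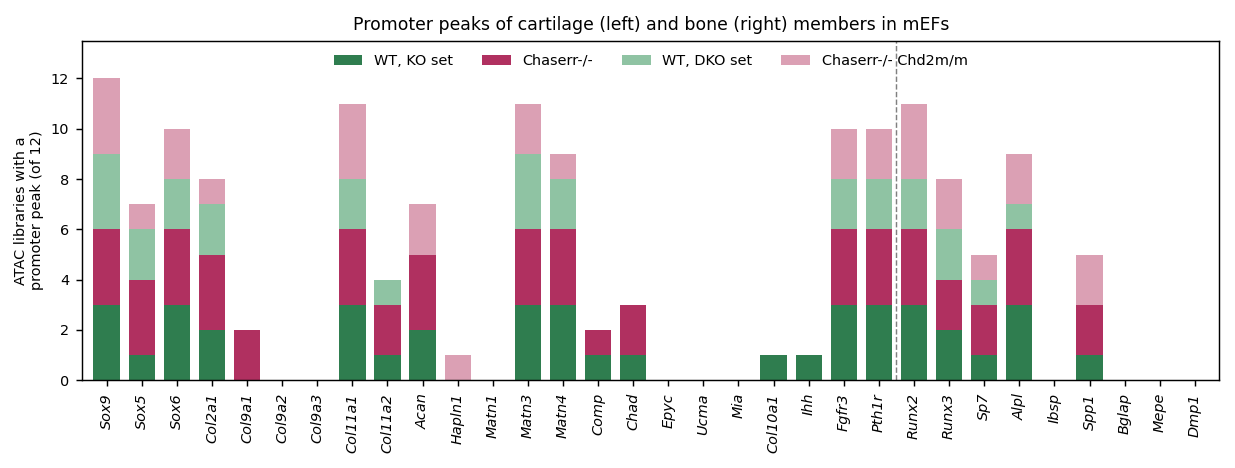
Number of ATAC-seq libraries, of 12 in all, with a peak at the promoter of each of the 32 genes, stacked by group (3 libraries each of KO-set WT, Chaserr-/-, DKO-set WT and Chaserr-/- Chd2m/m mEFs). The bar of Sox9 reaches 12, and 10 genes have no bar.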

How the data were processed

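RNA-seq reads were assigned by the authors with RSEM on RefSeq transcripts, and the expected count, TPM and FPKM of each gene were deposited for each of 47 libraries, with no normalization between libraries. FPKM was not used. Kits were TruSeq Stranded mRNA (embryos, brain replicate 3) or SENSE (mEFs, other brains), and the RIP libraries were depleted of rRNA. For ATAC-seq, Bowtie2 (mm9) and MACS2 were used by the authors to call peaks in each library, and the deposited peaks carry a score, a signal ratio (fold enrichment) and the -log10 of p and q. Tool versions are not given in the sources used here.

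Expected counts were rounded and tested with the quasi-likelihood test of edgeR 4.0.16 (R 4.3.3), after filterByExpr and scaling by TMM. Calls are those with a Benjamini-Hochberg adjusted p, over all genes tested, under 0.05. DESeq2 1.42.0 was an alternative, as were no filter on low counts, log2(TPM + 1), a replicate block, each library left out in turn, and for ATAC-seq a window of 1000 bases or a -log10 q of at least 5. Totals lay between 7621335 and 33192002 counts. The procedure was checked on simulated counts. Each mutant was compared with its own WT libraries, without a covariate, and groups were taken from the labels. Same-numbered brains correlated in their deviations from the group means (0.437, 0.529 and 0.747). Replicate 3 of both brain groups came from another library kit, so pairing by number and kit cannot be told apart. In the Chd2 set the labels give a number after the cross, but same-numbered cultures showed little pairing (-0.0556 and 0.0931). Gene symbols and promoter sequences came from RefSeq (93.8% of rows matched to one symbol), and ATAC-seq starts from GENCODE vM1.

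The members and lists were chosen with earlier results of these data known. Values per library are given in WT embryos for the 2 called members of each role with the largest change and any that fell, in cultures for members at 5 TPM or more in a WT set or called among sets, and in mutants for members called by either tool (at most 8) or the 2 with the lowest unadjusted p. Other members named with values were chosen after these were seen. Of the other skeletal genes, up to 4 per comparison at 1 TPM or more were named. The 4C samples were not analysed here.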

Additional observations from a re-analysis of the deposited data

Results flagged for a closer look

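Under the Chaserr+/- contrast, Hapln1 and Mia had fold changes of opposite sign in different tissues, without overlap between genotypes in scaled counts. None of these fold changes passed in edgeR, and the mEF value of Hapln1 alone passed in DESeq2. Of all genes, 5.34% lay above without overlap in E9.5 embryos and 7.65% in mEFs, and 7.07% lay below in E13.5 embryos and 5.11% in brains. The differences between tissues were not tested. Hapln1, the link protein of cartilage and of neuronal nets, had a log2 fold change of 0.10 in E9.5 embryos, 0.71 in mEFs and -0.48 in brains, so the E9.5 value lay above the brain value by 0.58 and the mEF value by 1.19. Hapln1 was at 11.1, 9.51 and 12.8 TPM in WT and 8.95, 5.19 and 10.2 in Chaserr+/- brains, which overlap in TPM. Mia had 1.45 in mEFs, -0.35 in E13.5 embryos and -0.91 in brains, so the mEF value lay above the E13.5 value by 1.80 and the brain value by 2.36. Mia was at 3.28, 2.42 and 1.84 TPM in WT and 4.43, 7.65 and 9.49 in Chaserr+/- mEFs, and at 32.9, 28.2 and 35.5 in WT and 19.9, 28.8 and 25.4 in Chaserr+/- E13.5 embryos, of which one overlaps the WT range in TPM.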

How the results depend on the processing

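In the alternatives fitted to counts no named gene changed direction where it was called. In TPM, 3, 2 and 4 called cartilage genes of the het, KO and Chd2 cultures and 1 called bone gene of the Chd2 cultures have the opposite sign. Of the other values of a count of members called, 146 stayed within 1.5 times and 25 moved. Those that moved with a library left out fall in the ranges of the next paragraph, and the rest follow. In Chaserr+/- mEFs they were 6 (DESeq2), 7 (no filter) and 6 (replicate block). In Chaserr-/- mEFs they were 4 (DESeq2) and 3 (no filter), and in Chd2m/m mEFs 11 (replicate block). In Chaserr-/- Chd2m/m mEFs they were 1 (DESeq2), 1 (no filter) and 2 (replicate block). For the Chaserr-/- effect minus the Chaserr-/- Chd2m/m effect the count was 3 (DESeq2). For the Chaserr-/- effect minus the Chaserr+/- effect it was 7 (DESeq2) and 4 (no filter). Beyond the values just given, the replicate block moved no count by over 1.5 times, and brains stayed at 0. Medians moved with DESeq2, no filter and log2(TPM + 1): for the stages to 2.01, 1.85 and 0.78 (cartilage) and 1.49 in TPM (bone); for the het-set cultures 2.22, 2.15 and 0.31 (bone); for the KO set 0.20, 0.13 and -0.62 (cartilage) and 3.11, 3.05 and 1.83 (bone); for the Chd2 set -1.09 (cartilage) and 0.53 (bone) in TPM; for the DKO set 0.073, 0 and -0.73 (cartilage) and 1.54 in TPM (bone). The bone median of Chaserr+/- mEFs became 1.71 without a filter and 0.44 in TPM, and in the RIP the cartilage median went from -0.79 to -0.64 with DESeq2 and -0.30 in TPM, and the bone median turned from 0.52 to -0.50 with DESeq2 and -0.53 without a filter. No filter and DESeq2 add genes of low counts, and the TPM scale shrinks low genes. Members with an ATAC-seq promoter peak in every library were 0 at a -log10 q of at least 5 (16 in none) and 7 without the 2 libraries of fewest peaks.

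With each library left out in turn, the number of members called ranged over 24 to 27 (stages), 23 to 26, 24 to 28, 18 to 22 and 21 to 24 (het, KO, Chd2 and DKO cultures), 0 to 0 in Chaserr+/- brains and embryos of both stages and in Chd2m/m mEFs, 0 to 5 (Chaserr+/- mEFs), 0 to 6 (Chaserr-/-), 0 to 2 (Chaserr-/- Chd2m/m), 0 to 10 (RIP), 23 to 28 (among WT sets), 0 to 3 and 0 to 12 (the 2 differences between effects). Cartilage medians ranged over 1.14 to 1.22, -0.99 to -0.60, -0.014 to 0.21, -1.13 to -0.003, -0.47 to 0.032, then -0.06 to 0.01, -0.10 to 0.02, -0.19 to 0.21, 0.45 to 0.79, -0.78 to -0.25, -0.62 to -0.10, -0.04 to 0.45, -1.18 to -0.24, -0.81 to -0.26 and -1.20 to -0.83, in the order stages, cultures, Chaserr+/- E9.5, E13.5, brain and mEF, Chaserr-/-, Chd2m/m, Chaserr-/- Chd2m/m, RIP and differences. Bone medians in the same order ranged over 2.68 to 4.13, 1.52 to 2.23, 2.72 to 3.12, 0.50 to 1.64, 1.51 to 2.41, -0.15 to -0.04, -0.05 to 0.03, -0.064 to 0.66, 0.83 to 1.59, -0.59 to 0.02, -1.48 to -0.10, -0.30 to -0.04, 0.14 to 1.82, -0.23 to 0.54 and -1.47 to -0.87. ATAC-seq peaks in every library ranged over 1 to 3 members and in none over 10 to 12. In Chd2m/m mEFs this leaves a single mutant library, and in the RIP a single library of a group, assumed to vary like the others. Shares of all genes are not given for the fits with a library left out, so their counts set no member apart. Low counts limit Chad, Ucma, Col10a1, Bglap, Mepe, Dmp1 and Ihh.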
